A study of Homo sapiens with 8 samples.

Results

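The genes described here lie next to BRCA1 on the long arm of chromosome 17, in the stretch that runs from PSME3 to GRN. A list of 33 such genes, without BRCA1 itself, was matched to probe sets that the array's platform annotation pairs with exactly 1 gene, and where a gene had several, the one brightest on average across the 8 arrays was used. That left 31 of the 33 members among 18417 genes measured in all. AARSD1 was named only on a probe set shared by several genes, and PPY on none, so neither was analysed here. The kept probe set was chosen by its mean level over all arrays, which uses no difference between the groups. The list of members, however, was chosen with earlier results of these data known.

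The samples were 4 groups of 2 arrays each. They were HCC1937+BRCA1 cells given COH29, HCC1937+BRCA1 control cells, HCC1937 cells given COH29 and HCC1937 control cells. HCC1937 is a breast cancer line that carries a truncated BRCA1 and is labelled BRCA1 deficient, and HCC1937+BRCA1 is the same line with exogenous wild-type BRCA1, so both lines share the truncated allele. COH29, an inhibitor of ribonucleotide reductase, was given at 10 µM for 24 h. The labels name no vehicle for the control cells, and do not say whether HCC1937+BRCA1 is 1 clone or whether the 2 arrays within a group stem from different cultures. P-values therefore measure the spread between arrays, which may be technical. The study set the drug's effect in the BRCA1-deficient line beside its effect in the line with wild-type BRCA1, and the same arrays allow the lines to be compared with and without the drug.

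BRCA1 encodes a DNA repair protein that works in homologous recombination. Its neighbours have no shared function. They include regulators of protein breakdown (PSME3, NBR1, GRN), RNA processing factors (DHX8, LSM12), transcription and chromatin factors (ETV4, HDAC5, ATXN7L3, UBTF, MEOX1), metabolic enzymes and transporters (G6PC1, G6PC3, AOC2, AOC3, NAGS, SLC25A39, SLC4A1) and signalling or scaffold proteins (DUSP3, MPP2, MPP3, RND2). In tumour genomes, neighbouring genes often gain or lose copies together because chromosome segments change as units, and genes arranged head to head can share the sequence between their start sites. Several genes of this stretch are arranged in that way. BRCA1 itself lies head to head with NBR2, and RefSeq also places a BRCA1 start head to head with NBR1.

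Of the members, 18 had at least 1 promoter window in the RefSeq table of build GRCh38.p14, with 28 windows in all, each running from 250 bases before a gene start to 50 bases after it. The 3 windows below are shown because each is shared with a gene on the opposite strand whose values are reported here. Capitals mark the bases that also lie in the partner's window. The NBR1 window lies at chr17:43170159-43170458 on the plus strand, and shares 181 bases with a BRCA1 window on the minus strand at chr17:43170278-43170577. The TMUB2 window lies at chr17:44186722-44187021 on the plus strand, and shares 246 bases with a window of ASB16-AS1 on the minus strand at chr17:44186668-44186967. The NAGS window lies at chr17:44004372-44004671 on the plus strand, and shares 276 bases with a PYY window on the minus strand at chr17:44004396-44004695. All are written 5′ to 3′ on the plus strand.
NBR1: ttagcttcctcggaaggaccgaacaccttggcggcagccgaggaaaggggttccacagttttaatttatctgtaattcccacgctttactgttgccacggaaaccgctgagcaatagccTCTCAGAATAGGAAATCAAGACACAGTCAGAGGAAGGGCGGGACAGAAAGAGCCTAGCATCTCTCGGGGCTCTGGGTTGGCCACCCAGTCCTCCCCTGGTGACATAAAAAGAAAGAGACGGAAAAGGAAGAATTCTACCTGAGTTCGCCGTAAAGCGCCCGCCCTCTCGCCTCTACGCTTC
TMUB2: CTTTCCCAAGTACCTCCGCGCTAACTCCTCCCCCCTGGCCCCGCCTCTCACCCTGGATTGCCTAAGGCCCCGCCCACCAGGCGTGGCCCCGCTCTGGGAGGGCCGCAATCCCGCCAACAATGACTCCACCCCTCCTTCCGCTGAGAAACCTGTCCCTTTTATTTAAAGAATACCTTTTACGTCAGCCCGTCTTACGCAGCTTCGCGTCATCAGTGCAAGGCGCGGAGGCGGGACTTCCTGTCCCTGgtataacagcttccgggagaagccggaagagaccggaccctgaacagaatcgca
NAGS: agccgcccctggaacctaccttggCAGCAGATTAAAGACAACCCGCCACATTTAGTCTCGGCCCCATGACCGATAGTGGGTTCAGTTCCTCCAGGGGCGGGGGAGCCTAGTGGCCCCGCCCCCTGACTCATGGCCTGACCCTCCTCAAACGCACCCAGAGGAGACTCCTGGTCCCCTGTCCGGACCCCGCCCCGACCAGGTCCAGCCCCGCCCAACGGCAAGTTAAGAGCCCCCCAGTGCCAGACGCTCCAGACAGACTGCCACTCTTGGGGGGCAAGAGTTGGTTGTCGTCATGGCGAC
Windows of BRCA1 and NBR2, at chr17:43125315-43125614 and chr17:43125307-43125606, share 292 bases. The motifs GATGCAA (the core of the C/EBP-ATF composite element), ACGTG (the core of the hypoxia response element) and TTTGAA (the cell cycle homology region) were searched on both strands in all windows. None of these strings contains another. None of the 3 was found in the windows printed above. GATGCAA was in 2.4% of the 35116 windows of the table and, among members, in G6PC1. ACGTG was in 21.4% of all windows and in windows of G6PC1, G6PC3, LSM12, PSME3 and SLC25A39. TTTGAA was in 15.2% of all windows and in TMEM106A. These matches describe letters in a window and not a bound factor.

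The values are log2 intensities, and a difference of 1 is a change of intensity by a factor of 2 on that scale. The 2 arrays of each group correlated at 0.996 to 0.997 over all genes, and each of the 8 arrays correlated best with its group partner. The epithelial markers EPCAM and CDH1 had group means of 12.09 to 12.29 and 12.05 to 12.58. PTPRC and CD3E, which mark leukocytes, lay below the 30th percentile of mean level over all genes, and 3 of 4 fibroblast markers did too, whereas CD68, the remaining leukocyte marker measured, had group means of 10.58 to 10.86. Markers that differ within the mammary and endothelial lists also differed between the lines. KRT5, a basal keratin, was lower by 1.70 ± 0.10 (SE) in HCC1937+BRCA1 control cells than in HCC1937 control cells (limma, adjusted p = 2.57e-06), while EGFR of the same list was 0.51 ± 0.08 higher (adjusted p = 0.00113) and KRT14 and CDH3, at -0.15 and 0.15, did not pass. Of 7 luminal markers, GATA3 at -0.74 ± 0.10 and FOXA1 at -0.38 ± 0.10 were lower and 0 were higher. Of the 3 endothelial markers, PECAM1 averaged 6.63 and 8.11 in HCC1937+BRCA1 cells with and without COH29, and 7.35 and 9.30 in HCC1937 cells with and without COH29, CDH5 was lower in the same comparisons, and VWF lay below the 30th percentile. The part of these markers in the results below was not tested.

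BRCA1, the gene that was put into the cells, is given first. On its kept probe set it measured 10.25 and 10.07 in HCC1937+BRCA1 with COH29, 10.50 and 10.43 in HCC1937+BRCA1 control, 10.40 and 10.46 in HCC1937 with COH29, and 10.45 and 10.64 in HCC1937 control cells. The control arrays of the lines overlapped, and the line difference without drug was -0.08 ± 0.10 (SE, adjusted p = 0.62). Whether this probe set detects the exogenous transcript was not tested, so BRCA1 does not check the labels here. With COH29 it was 0.30 ± 0.10 lower than in control cells in HCC1937+BRCA1 (adjusted p = 0.0441). This call was lost without either HCC1937+BRCA1 control array, HCC1937+BRCA1 COH29 replicate 2 or either HCC1937 COH29 array. It was also lost when the arrays were scaled to one median (adjusted p = 0.103) or by cyclic loess (adjusted p = 0.177). The same held with the replicate number as a block (adjusted p = 0.0658) and with only the 4 arrays compared (adjusted p = 0.0611).

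Most members that differed between the lines were lower in HCC1937+BRCA1. Without drug, 17 of 31 members were lower in HCC1937+BRCA1 control cells than in HCC1937 control cells and 1, TMEM106A, was higher, at an adjusted p under 0.05 in limma with Benjamini-Hochberg adjustment over all 18417 genes. Over all genes, 14.8% were lower and 16.4% were higher in this comparison (31.2% in either direction). The median difference of the members was -0.30, against -0.01 over all genes, and 25 of 31 were below 0. Since the members were chosen with earlier results of these data known, these counts describe the list and do not test it. The 2 arrays of HCC1937+BRCA1 both lay below the 2 of HCC1937 for 21 members and above them for 1 member, while 31.8% of all genes separated in each of these directions. ETV4 differed most, followed by AOC2, NBR1, GRN, DHX8, G6PC3, ATXN7L3, MPP3 and TMUB2.

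**Figure D1:**
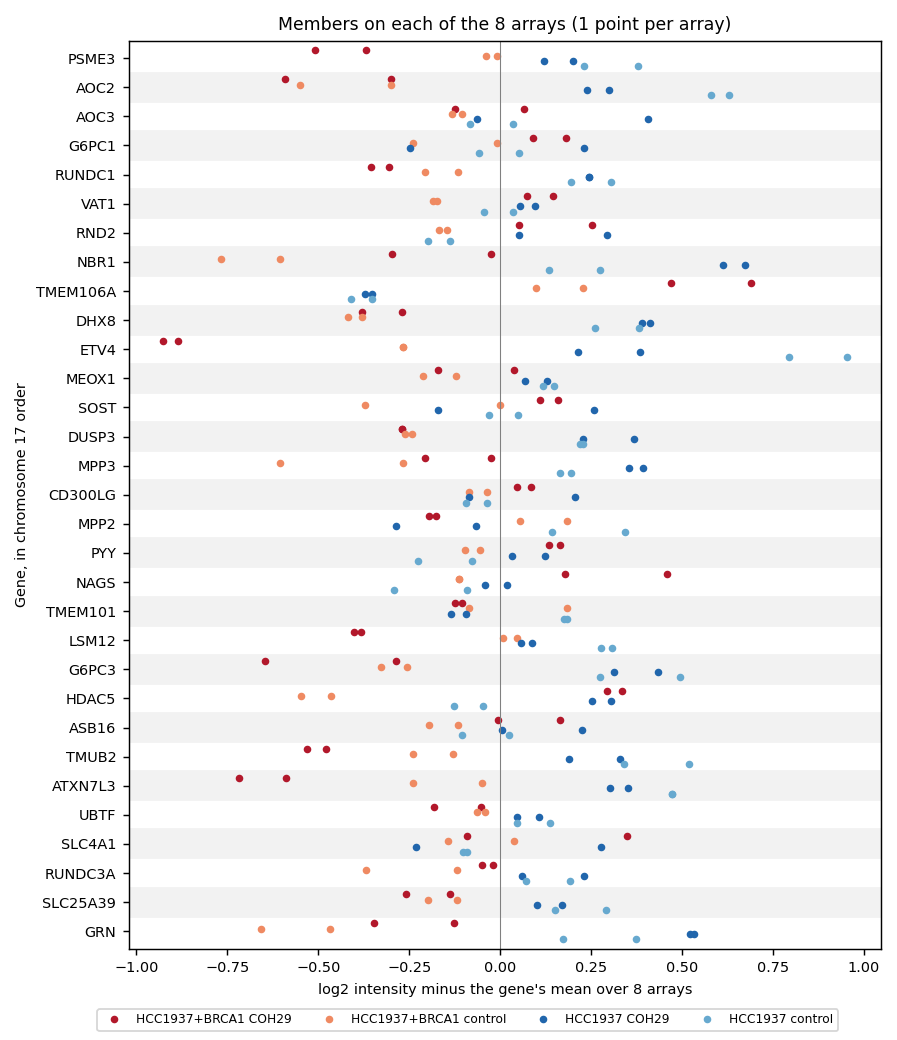
Log2 intensity of each of the 31 members on each of the 8 arrays, minus the mean of that gene over the 8 arrays, with genes in chromosome order from PSME3 at the top to GRN. Each point is 1 array, and colours mark the 4 groups. For ETV4, NBR1, GRN, DHX8 and G6PC3 all 4 HCC1937+BRCA1 arrays lie left of all 4 HCC1937 arrays, and for TMEM106A they lie right of them.

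Among the regulators of protein breakdown, NBR1, a receptor that brings ubiquitin-tagged cargo into autophagosomes, measured 10.06 and 10.33 in HCC1937+BRCA1 with COH29, 9.59 and 9.75 in HCC1937+BRCA1 control, 10.97 and 11.03 in HCC1937 with COH29, and 10.63 and 10.49 in HCC1937 control cells. All 4 HCC1937+BRCA1 arrays lay below all 4 HCC1937 arrays, and within each line the COH29 arrays were the higher ones. The line difference without drug was -0.89 ± 0.11 (SE), or 1.85-fold lower (adjusted p = 0.000334). GRN, which encodes progranulin, a secreted protein that is cut into granulins in lysosomes, measured 12.00 and 12.22 in HCC1937+BRCA1 with COH29, 11.69 and 11.88 in HCC1937+BRCA1 control, 12.87 and 12.88 in HCC1937 with COH29, and 12.72 and 12.52 in HCC1937 control cells. The lines again did not overlap, and the difference without drug was -0.83 ± 0.11, or 1.78-fold lower (adjusted p = 0.000507). PSME3, a proteasome activator that works without ubiquitin, measured 11.67 and 11.81 in HCC1937+BRCA1 with COH29, 12.17 and 12.14 in HCC1937+BRCA1 control, 12.30 and 12.38 in HCC1937 with COH29, and 12.56 and 12.41 in HCC1937 control cells. Its lines were also apart on all arrays, by -0.33 ± 0.09 without drug (adjusted p = 0.0221). TMUB2, a transmembrane protein with a ubiquitin-like domain, averaged 8.53 ± 0.08 in HCC1937+BRCA1 control and 9.14 ± 0.12 in HCC1937 control cells (SD, n = 2 each), a difference of -0.61 ± 0.10 (SE, limma adjusted p = 0.00122).

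TMEM106A, a transmembrane protein related to the lysosomal protein TMEM106B, was the member that went the other way. It measured 8.75 and 8.97 in HCC1937+BRCA1 with COH29, 8.38 and 8.51 in HCC1937+BRCA1 control, 7.91 and 7.93 in HCC1937 with COH29, and 7.93 and 7.87 in HCC1937 control cells. All 4 HCC1937+BRCA1 arrays lay above all 4 HCC1937 arrays, with the COH29 arrays highest. The line difference without drug was 0.54 ± 0.10, or 1.45-fold higher (adjusted p = 0.00268). In the order of measured genes along the chromosome it comes next after NBR1, so neighbours in this order differed in direction.

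Both RNA processing members were lower. DHX8, a DEAH-box helicase that releases spliced messenger RNA from the spliceosome, measured 9.75 and 9.86 in HCC1937+BRCA1 with COH29, 9.71 and 9.75 in HCC1937+BRCA1 control, 10.52 and 10.54 in HCC1937 with COH29, and 10.51 and 10.39 in HCC1937 control cells. The lines stood apart on all arrays and the drug left each line's values close together. The difference without drug was -0.72 ± 0.09, or 1.65-fold lower (adjusted p = 0.000233). LSM12, a member of the LSM family of RNA-binding proteins, measured 12.35 and 12.37 in HCC1937+BRCA1 with COH29, 12.80 and 12.76 in HCC1937+BRCA1 control, 12.84 and 12.81 in HCC1937 with COH29, and 13.03 and 13.06 in HCC1937 control cells. Its lines differed by -0.27 ± 0.08 without drug (adjusted p = 0.0279), one of the smaller differences among the members called.

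Among transcription and chromatin factors, ETV4, an ETS factor of the PEA3 group that acts downstream of receptor tyrosine kinases, had the largest difference of any member. It measured 7.19 and 7.15 in HCC1937+BRCA1 with COH29, 7.81 and 7.81 in HCC1937+BRCA1 control, 8.29 and 8.46 in HCC1937 with COH29, and 9.03 and 8.87 in HCC1937 control cells. The 4 groups did not overlap at all, and the line difference without drug was -1.14 ± 0.09, or 2.21-fold lower (adjusted p = 2.64e-05). ATXN7L3, an adaptor of the deubiquitinating module of the SAGA coactivator, measured 7.79 and 7.66 in HCC1937+BRCA1 with COH29, 8.33 and 8.14 in HCC1937+BRCA1 control, 8.73 and 8.68 in HCC1937 with COH29, and 8.85 and 8.85 in HCC1937 control cells. It too had 4 groups that did not overlap, and differed by -0.62 ± 0.09 between the lines without drug (adjusted p = 0.000992). HDAC5, a class IIa histone deacetylase, measured 8.95 and 8.91 in HCC1937+BRCA1 with COH29, 8.07 and 8.15 in HCC1937+BRCA1 control, 8.92 and 8.87 in HCC1937 with COH29, and 8.49 and 8.57 in HCC1937 control cells. Its control arrays were apart by line, at -0.42 ± 0.08 (adjusted p = 0.00392), whereas its COH29 arrays overlapped. MEOX1, a homeobox factor of the somites, differed by -0.30 ± 0.10 (adjusted p = 0.0419), and UBTF, which loads RNA polymerase I onto ribosomal DNA, by -0.14 ± 0.09 (adjusted p = 0.269).

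Of the metabolic genes, AOC2, a copper amine oxidase of the retina, measured 5.93 and 6.22 in HCC1937+BRCA1 with COH29, 6.22 and 5.97 in HCC1937+BRCA1 control, 6.76 and 6.82 in HCC1937 with COH29, and 7.10 and 7.15 in HCC1937 control cells. The lines did not overlap, and the difference without drug was -1.03 ± 0.12, or 2.04-fold lower (adjusted p = 0.000191). Its mean over the 8 arrays lay below the 30th percentile of all genes. G6PC3, the widely expressed glucose-6-phosphatase, measured 10.03 and 10.39 in HCC1937+BRCA1 with COH29, 10.35 and 10.42 in HCC1937+BRCA1 control, 10.99 and 11.11 in HCC1937 with COH29, and 11.17 and 10.95 in HCC1937 control cells. It differed by -0.68 ± 0.13 without drug (adjusted p = 0.00357), with every HCC1937+BRCA1 array below every HCC1937 array. G6PC1, the liver and kidney form of that enzyme, lay below the 30th percentile and differed by -0.12 ± 0.15 (adjusted p = 0.637). SLC25A39, which imports glutathione into mitochondria, differed by -0.38 ± 0.09 (adjusted p = 0.0116). NAGS, which makes the activator of the first enzyme of the urea cycle, differed by 0.08 ± 0.11 (adjusted p = 0.691).

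Among signalling and scaffold proteins, MPP3, a membrane scaffold of the MAGUK family, measured 7.93 and 8.11 in HCC1937+BRCA1 with COH29, 7.53 and 7.87 in HCC1937+BRCA1 control, 8.53 and 8.49 in HCC1937 with COH29, and 8.30 and 8.33 in HCC1937 control cells. The lines did not overlap, with a difference of -0.62 ± 0.12 without drug (adjusted p = 0.00361). Its relative MPP2 differed by -0.12 ± 0.11 (adjusted p = 0.466). DUSP3, a small dual-specificity phosphatase that acts on MAP kinases, averaged 9.52 ± 0.02 in HCC1937+BRCA1 control and 9.99 ± 0.01 in HCC1937 control cells (SD, n = 2 each), a difference of -0.47 ± 0.08 (SE, limma adjusted p = 0.00234). RUNDC1 and RUNDC3A, proteins with a RUN domain, differed by -0.41 ± 0.08 (adjusted p = 0.00552) and -0.37 ± 0.11 (adjusted p = 0.0275).

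The 13 members that did not pass the test ranged from -0.19 for SOST to 0.08 for NAGS. They were AOC3, G6PC1, VAT1, RND2, SOST, CD300LG, MPP2, PYY, NAGS, TMEM101, ASB16, UBTF and SLC4A1. Several are known mainly from other tissues, such as SOST (the bone Wnt antagonist sclerostin), PYY (a gut hormone) and SLC4A1 (the anion exchanger of red cells). Of the 5 members below the 30th percentile of mean level (AOC2, G6PC1, RND2, MEOX1 and SLC4A1), 2 were called lower, and of the 26 above it, 15 were called lower and 1 higher. For 6 of the lower members the call depended on single arrays. PSME3, RUNDC1, MEOX1, LSM12, RUNDC3A and SLC25A39 were lost without HCC1937 control replicate 1, which left 11 lower members (adjusted p = 0.0544 to 0.163). All of these but RUNDC1 were also lost without HCC1937+BRCA1 control replicate 1. PSME3, MEOX1 and LSM12 were lost without HCC1937+BRCA1 control replicate 2, and MEOX1, LSM12 and RUNDC3A without HCC1937 control replicate 2. MEOX1 was also lost without either HCC1937 COH29 array, with trended and robust eBayes (adjusted p = 0.0828) and with the replicate number as a block (adjusted p = 0.0524). The other 11 lower members and TMEM106A passed with any 1 array left out.

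The lines were also compared on separate arrays, those of the cells given COH29. There, 14 members were lower in HCC1937+BRCA1 and 2, TMEM106A and NAGS, were higher, against 17.4% of all genes lower and 14.2% higher (31.6% in either direction). The median difference of the members was -0.19, against -0.00 over all genes. The arrays of the lines were apart for 17 members in the lower direction and 3 in the higher, where 32.0% and 28.6% of all genes separated. All 14 were among the 17 lower without drug, where 11.5% of all genes were lower in both comparisons. TMEM106A was higher in both, as were 11.0% of all genes. Over the 31 members, the differences with and without drug, which share no arrays, had a Pearson r of 0.911, and over all genes of 0.881, and 25 of 31 members had the same sign, as did 13355 of the 18417 genes. The members share their arrays within each comparison, so this is a description.

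Among cells given COH29, ETV4 differed between HCC1937+BRCA1 and HCC1937 by -1.20 ± 0.09 (2.30-fold lower, adjusted p = 2.14e-05) and ATXN7L3 by -0.98 ± 0.09 (1.97-fold lower, adjusted p = 7.25e-05). TMEM106A was higher by 0.94 ± 0.10 (1.92-fold, adjusted p = 0.000111). The line differences on these arrays were -0.84 for G6PC3, -0.81 for NBR1, -0.77 for TMUB2, -0.77 for GRN, -0.73 for DHX8 and -0.71 for AOC2, each with a standard error of 0.09 to 0.13. HDAC5 no longer separated the lines, at 0.03 ± 0.08 (adjusted p = 0.82). NAGS was higher by 0.33 ± 0.11 at an adjusted p of 0.0498. This call was lost with the replicate number as a block (adjusted p = 0.0733) and with only the 4 arrays compared (adjusted p = 0.0792). It was also lost when any 1 of 7 arrays was left out, the exception being HCC1937+BRCA1 COH29 replicate 1. MPP3 was lost without that replicate or HCC1937 COH29 replicate 1 (adjusted p = 0.0816 and 0.0539), and SLC25A39 without it or HCC1937 COH29 replicate 2 (adjusted p = 0.117 and 0.0935).

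**Figure D2:**
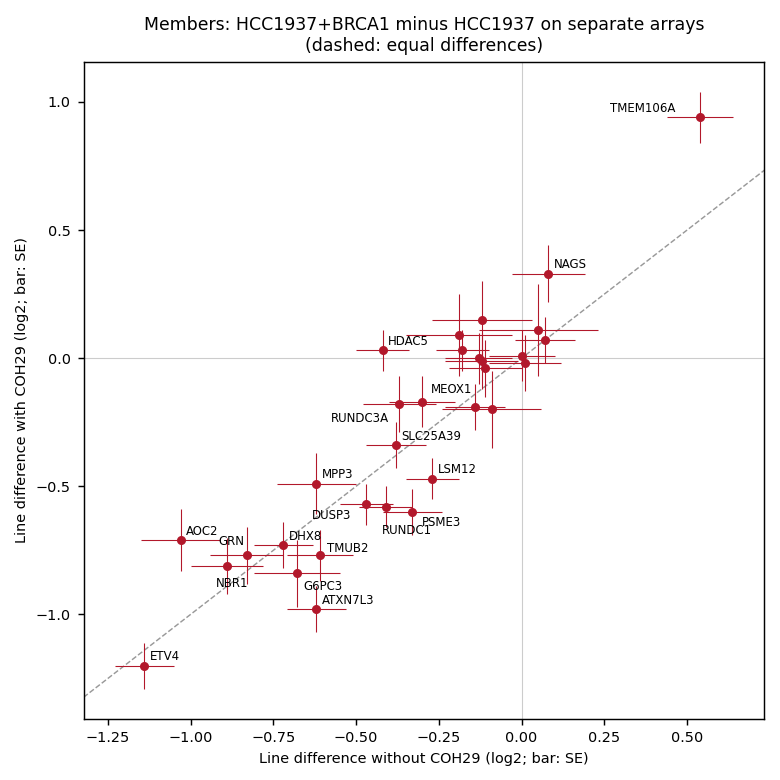
Line difference (HCC1937+BRCA1 minus HCC1937, log2) of the 31 members on the arrays with COH29 (vertical axis) against that on the arrays without it (horizontal axis), with standard errors as bars. The dashed line marks equal differences, and the genes called in either comparison are named. ETV4 lies lowest at -1.20 with drug and -1.14 without, and TMEM106A lies alone at 0.94 with drug and 0.54 without.

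The genes of the stretch that are no members were read from the same fit. Between PSME3 and GRN, 11 other genes were measured, BRCA1 among them, and 7 were lower without drug and 0 higher, with a median of -0.32. Over all genes 14.8% were lower and 16.4% higher. Of the 7, RPL27 (adjusted p = 0.0459) was lost with arrays shifted to one median (adjusted p = 0.0525). FAM215A (adjusted p = 0.0386) was lost with the replicate number as a block (adjusted p = 0.0553), and both without some single arrays. With drug, 6 of the 11 were lower and 0 higher, against 17.4% and 14.2% of all genes. IFI35, an interferon-induced protein, measured 9.53 and 9.73 in HCC1937+BRCA1 with COH29, 9.78 and 9.93 in HCC1937+BRCA1 control, 10.92 and 11.07 in HCC1937 with COH29, and 11.08 and 11.04 in HCC1937 control cells. Its difference without drug, -1.20 ± 0.10 (2.30-fold, adjusted p = 3.27e-05), exceeded that of every member. NBR2, the long non-coding RNA head to head with BRCA1, was lower by 0.75 ± 0.09 (adjusted p = 0.000205), ASB16-AS1, an antisense RNA, by 0.55 ± 0.08 (adjusted p = 0.000767), and LINC00910, a long non-coding RNA, by 0.54 ± 0.09 (adjusted p = 0.00139). ASB16-AS1 overlaps its sense partner's locus, and whether the array tells their strands apart was not tested.

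Without drug, line differences were unlike for BRCA1 and its head-to-head partners, and similar for the partners in the other windows shown. BRCA1 differed by -0.08 in the comparison without drug, while its partners NBR2 and NBR1, which follow it in that order, differed by -0.75 and -0.89. TMUB2 and ASB16-AS1, which share a window, were both lower, by 0.61 and 0.55. NAGS and PYY, which share a window too, differed by 0.08 and 0.07, and neither passed the test. The differences between partners were not themselves tested. Whether the BRCA1 probe set also detects the exogenous transcript was not tested either, so its value may not stand for the endogenous gene alone.

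**Figure D3:**
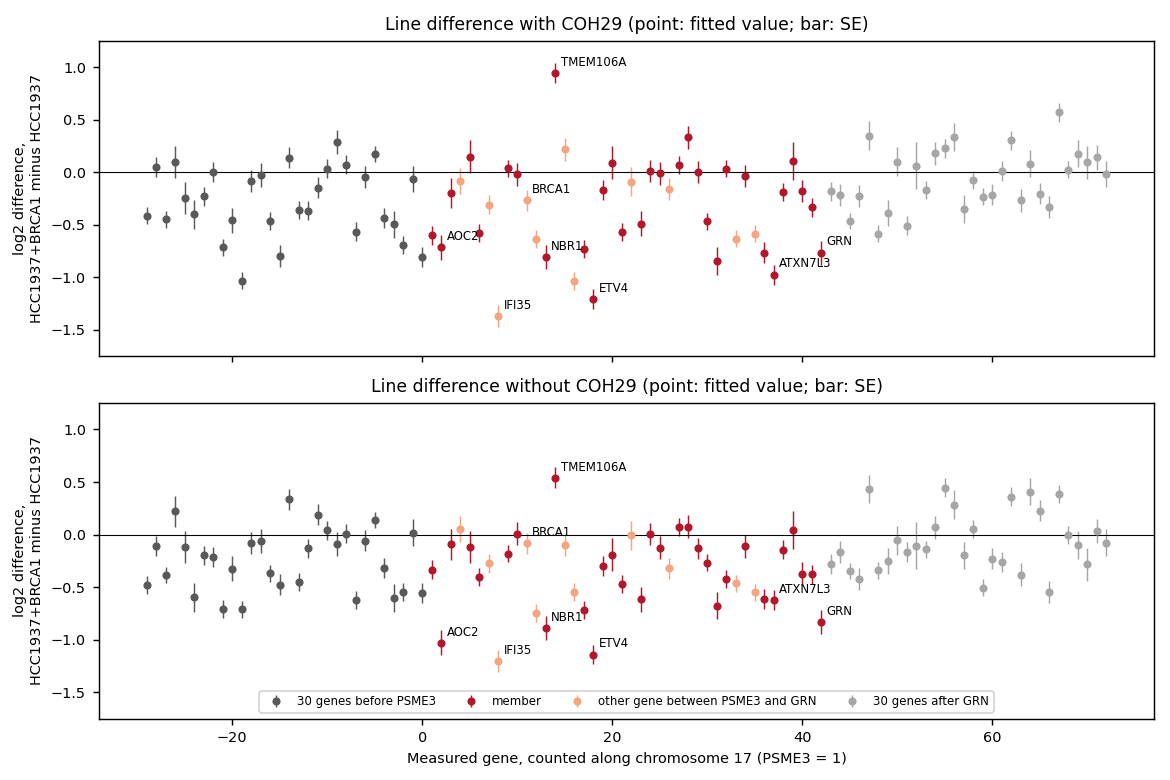
Line difference (HCC1937+BRCA1 minus HCC1937, log2, with standard errors) of the 42 measured genes from PSME3 to GRN and of 30 measured genes on each side, in chromosome order, with COH29 (top) and without it (bottom). Members are dark red, other genes of the stretch light, and flanking genes grey. Most points of the stretch lie below 0, down to IFI35 at -1.37 with drug and -1.20 without, and TMEM106A stands above the rest of the stretch at 0.94 and 0.54.

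Measured genes on both sides of the stretch were read from the same fit. Of the 30 measured genes before PSME3, 13 were lower and 1 higher without drug, with a median of -0.20, and of the 30 after GRN, 7 were lower and 5 higher, with a median of -0.12. The first count was 9 at its lowest when 1 array was left out (HCC1937 control replicate 1). The second was 3 for lower (without HCC1937+BRCA1 control replicate 1) and 1 for higher (without HCC1937 control replicate 2). On chromosome 17 outside the stretch, 17.7% of 1025 genes were lower and 7.90% higher without drug, with a median of -0.06. With COH29, 14 of the 30 genes before PSME3 were lower and 0 higher, with a median of -0.30. The members there had 14 of 31 lower and a median of -0.19. Of the 30 genes after GRN, 5 were lower and 2 higher with COH29, with a median of -0.05. Outside the stretch 20.8% were lower and 7.41% higher with COH29. Within the stretch, 3 of the 7 members before BRCA1 and 14 of the 24 members after it were lower without drug. Their medians were -0.18 and -0.33. With COH29 the counts were 3 and 11, and the medians -0.20 and -0.18, so the sides were then alike. No test of position was made, and the windows were set with earlier results of these data known.

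Chromosome 17 was then cut into blocks of 42 consecutive measured genes, counted from the stretch. The block from PSME3 to GRN had 24 genes lower and 1 higher without drug, with a median of -0.31. Over the 23 other blocks, 1 to 23 genes were lower and 0 to 9 higher, and medians ran from -0.33 to 0.11. The block that came closest lay 3 blocks before PSME3, from SNORA21 to KRT24, with 23 genes lower, 0 higher and a median of -0.33. The block just before PSME3 had 17 lower and 2 higher, and the block just after GRN had 7 lower and 6 higher. With COH29 the block from PSME3 to GRN had 20 genes lower and a median of -0.23. More genes were lower in the block from SNORD7 to RPL23, with 23, and in the block from SNORA21 to KRT24, with 21. The block just before PSME3 had 18 lower with COH29 and a median of -0.21. The low median was thus not limited to the stretch around BRCA1, and whether the lines differ in copy number here was not tested.

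**Figure D4:**
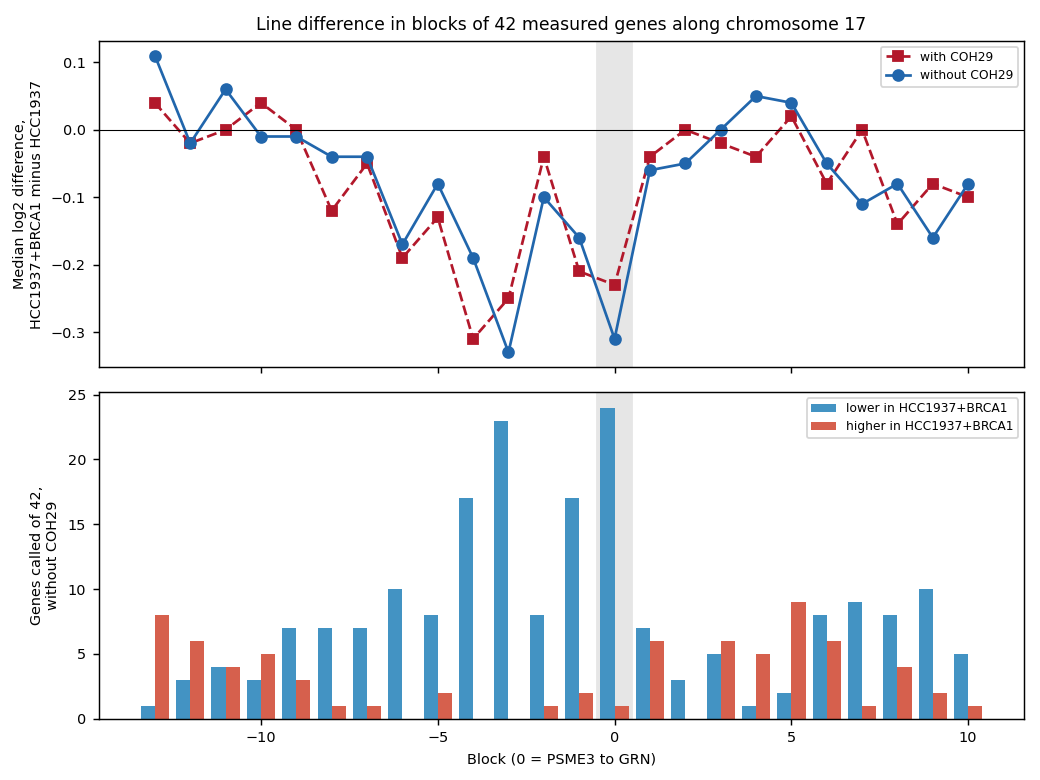
Line difference along chromosome 17 in 24 blocks of 42 consecutive measured genes, with block 0 (shaded) running from PSME3 to GRN. The top panel gives the median log2 difference of each block with COH29 (squares) and without it (circles), and the bottom panel counts the genes lower and higher in HCC1937+BRCA1 without drug. Block 0 and the block at -3 have the lowest medians without drug, -0.31 and -0.33.

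COH29 changed fewer members than the line did, and in both directions. In HCC1937+BRCA1, 5 members rose (HDAC5, NBR1, NAGS, TMEM106A and VAT1) and 5 fell (ETV4, ATXN7L3, LSM12, PSME3 and TMUB2), with 21 not called. Over all genes 13.6% rose and 20.1% fell (33.6% either way). The median change of the members was 0.10, against 0.04 over all genes. The COH29 arrays both lay above the control arrays for 14 members and below them for 9, where 35.4% and 33.0% of all genes separated. In HCC1937, 3 members rose (NBR1, HDAC5 and RND2) and 2 fell (ETV4 and MPP2), with 26 not called, while 10.2% of all genes rose and 12.5% fell (22.7% either way). The median there was 0.02, against 0.04 over all genes. The arrays were apart upward for 9 members and downward for 8, where 33.8% and 28.6% of all genes separated. The shares of members called were thus near or under those of all genes in each line. NBR1 and HDAC5 rose in both lines, as did 7.22% of all genes, and ETV4 fell in both, as did 10.8% of all genes. The counts in the partner lists below stand beside the shares of all genes called in each line, given above. None of these lists was tested as a set.

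HDAC5 had the largest change in HCC1937+BRCA1, where its COH29 arrays were 0.82 ± 0.08 higher than its control arrays (1.77-fold, limma adjusted p = 0.000105). In HCC1937 it rose by 0.37 ± 0.08 (1.29-fold, adjusted p = 0.0117), a call lost without HCC1937 COH29 replicate 1 or HCC1937 control replicate 1 (adjusted p = 0.062 and 0.0907). The partner list of HDAC5, class IIa deacetylases and the MEF2 factors they bind, had 1 of 6 measured genes up and 2 down in each line. MEF2D, a transcription factor that these deacetylases hold in check, rose by 0.65 ± 0.11 in HCC1937+BRCA1 and 0.59 ± 0.11 in HCC1937. HDAC7 fell by 0.58 ± 0.09 and 0.49 ± 0.09, HDAC4 fell by 0.38 ± 0.10 in HCC1937+BRCA1 and HDAC9 by 0.54 ± 0.11 in HCC1937.

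ETV4 fell in both lines, by 0.64 ± 0.09 in HCC1937+BRCA1 (1.56-fold, adjusted p = 0.000839) and by 0.58 ± 0.09 in HCC1937 (1.50-fold, adjusted p = 0.00241), and kept this call with any 1 array left out. Its relative ETV5 went the other way, rising by 1.45 ± 0.10 (adjusted p = 1.39e-05) and 1.04 ± 0.10 (adjusted p = 0.000154). ETV1, the remaining gene of the PEA3 group, fell by 0.77 ± 0.18 in HCC1937+BRCA1 (adjusted p = 0.00858) and was -0.45 ± 0.18 in HCC1937 (adjusted p = 0.102). Of the 6 genes listed with ETV4 as PEA3 factors and feedback genes of receptor signalling, 4 rose and 1 fell in HCC1937+BRCA1, and 3 rose and 0 fell in HCC1937. The phosphatase DUSP6 rose by 0.54 ± 0.10 and 0.79 ± 0.10, and the feedback inhibitor SPRY4 by 0.64 ± 0.10 and 0.44 ± 0.10. In the line difference without drug ETV1 was 2.29 ± 0.18 higher in HCC1937+BRCA1, opposite to ETV4.

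NBR1 rose by 0.52 ± 0.11 in HCC1937+BRCA1 (1.44-fold, adjusted p = 0.00632) and by 0.44 ± 0.11 in HCC1937 (1.36-fold, adjusted p = 0.0215). The first call was lost without HCC1937+BRCA1 control replicate 1 (adjusted p = 0.0509) and the second without any 1 of the 4 HCC1937 arrays (adjusted p = 0.0537 to 0.141). Of 6 other selective autophagy receptors, 3 rose in HCC1937+BRCA1 and 2 in HCC1937, where 13.6% and 10.2% of all genes rose, and 0 fell. SQSTM1, which carries the same kind of cargo as NBR1, rose by 0.86 ± 0.08 and 0.67 ± 0.08, and OPTN by 0.35 ± 0.08 and 0.39 ± 0.08. CALCOCO2 rose by 0.45 ± 0.09 in HCC1937+BRCA1. NBR2 rose with NBR1, by 0.70 ± 0.09 (adjusted p = 0.000348) and 0.59 ± 0.09 (adjusted p = 0.00153), while BRCA1, which precedes both in the gene order, had values of -0.30 ± 0.10 and -0.12 ± 0.10.

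GRN changed by 0.33 ± 0.11 in HCC1937+BRCA1 (adjusted p = 0.053) and 0.26 ± 0.11 in HCC1937 (adjusted p = 0.143), just outside the threshold in the first. It passed in HCC1937+BRCA1 with genes above the 30th percentile alone, with 2 other scalings and with trended and robust eBayes. The last of these settings also called it in HCC1937. Of 6 measured lysosomal genes listed with GRN, 4 rose in HCC1937+BRCA1 and 1 in HCC1937, where 13.6% and 10.2% of all genes rose. The protease LGMN rose in both, by 0.58 ± 0.09 and 0.68 ± 0.09, and PSAP, whose product binds progranulin, rose by 0.38 ± 0.09 in HCC1937+BRCA1. The same list held 4 genes lower between the lines without drug and 0 higher, with a median of -0.57. Over all genes 14.8% were lower and 16.4% higher. The 4 were CTSB at -1.07 ± 0.09, CTSL at -0.81 ± 0.10, PSAP at -0.70 ± 0.09 and CTSD at -0.43 ± 0.08. The other genes of the list, TMEM106B and LGMN, differed by 0.23 ± 0.11 and 0.14 ± 0.09 and did not pass.

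Other members changed in HCC1937+BRCA1. ATXN7L3 fell by 0.51 ± 0.09 there (1.42-fold, adjusted p = 0.00317) and was -0.15 ± 0.09 in HCC1937 (adjusted p = 0.291). None of the 7 genes listed with it as SAGA deubiquitinase genes changed in HCC1937+BRCA1 at the adjusted threshold, and 1, ATXN7L1, rose by 0.44 ± 0.12 in HCC1937. LSM12 fell by 0.43 ± 0.08 (1.34-fold, adjusted p = 0.00282) and was -0.22 ± 0.08 in HCC1937 (adjusted p = 0.0718). Of the 9 other LSM genes, 6 fell in HCC1937+BRCA1 and 4 in HCC1937, where 20.1% and 12.5% of all genes fell, and 0 rose. LSM5 at -0.77 ± 0.13 and LSM2 at -0.61 ± 0.11 fell most in HCC1937+BRCA1.

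PSME3 fell by 0.42 ± 0.09 in HCC1937+BRCA1 (1.33-fold, adjusted p = 0.00759), a call lost without HCC1937+BRCA1 COH29 replicate 1 (adjusted p = 0.0528), and was -0.15 ± 0.09 in HCC1937. None of the 4 other proteasome activators and inhibitors passed in either line, with values from -0.18 to 0.08. TMUB2 fell by 0.32 ± 0.10 in HCC1937+BRCA1 (adjusted p = 0.0298), a call lost without any 1 of the 4 HCC1937+BRCA1 arrays. With arrays shifted to one median and with cyclic loess scaling TMUB2 was lost too (adjusted p = 0.0544 and 0.0528). Its window partner ASB16-AS1 rose by 0.29 ± 0.08 in HCC1937+BRCA1 (adjusted p = 0.0212) and by 0.33 ± 0.08 in HCC1937 (adjusted p = 0.0179), each lost without any 1 of 3 arrays of that line.

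TMEM106A rose by 0.42 ± 0.10 in HCC1937+BRCA1 (1.34-fold, adjusted p = 0.00959) and was 0.02 ± 0.10 in HCC1937 (adjusted p = 0.913). NAGS, at 7.92 and 8.20 in HCC1937+BRCA1 with COH29, 7.63 and 7.63 in HCC1937+BRCA1 control, 7.76 and 7.70 in HCC1937 with COH29, and 7.65 and 7.45 in HCC1937 control cells, rose by 0.43 ± 0.11 in HCC1937+BRCA1 (1.35-fold, adjusted p = 0.0161). The HCC1937+BRCA1 COH29 arrays were the highest of the 8 for both genes. Both calls were lost without HCC1937+BRCA1 COH29 replicate 2 (adjusted p = 0.07 for TMEM106A and 0.109 for NAGS) or HCC1937+BRCA1 control replicate 1 (adjusted p = 0.0719 and 0.0674), and that of NAGS also without HCC1937+BRCA1 control replicate 2 (adjusted p = 0.0567). Of 6 urea cycle genes, 4 rose in HCC1937+BRCA1 and 3 in HCC1937, where 13.6% and 10.2% of all genes rose, and 0 fell. CPS1 was 1 of the 4, at 0.46 ± 0.11 in HCC1937+BRCA1, but lay below the 30th percentile of mean level, as did OTC and ARG1. ARG2, the mitochondrial arginase, rose by 1.24 ± 0.11 and 1.22 ± 0.11, ASS1 by 0.46 ± 0.09 and 0.30 ± 0.09, and ASL by 0.30 ± 0.08 and 0.44 ± 0.08. VAT1, a membrane protein first described in synaptic vesicles of the electric ray, rose by 0.29 ± 0.08 in HCC1937+BRCA1 (adjusted p = 0.0213), a call that depended on 3 of that line's arrays, COH29 replicate 2 and both controls.

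RND2, a small GTPase, measured 6.35 and 6.15 in HCC1937+BRCA1 with COH29, 5.93 and 5.95 in HCC1937+BRCA1 control, 6.39 and 6.15 in HCC1937 with COH29, and 5.96 and 5.90 in HCC1937 control cells. The COH29 arrays lay above the control arrays in both lines, by 0.31 ± 0.11 in HCC1937+BRCA1 (adjusted p = 0.0517) and 0.34 ± 0.11 in HCC1937 (adjusted p = 0.0489). RND2 lay below the 30th percentile of mean level, and its call in HCC1937 was lost when any 1 of 5 arrays was left out. That call was also lost with cyclic loess scaling (adjusted p = 0.114), with trended and robust eBayes (adjusted p = 0.0727) and with only the 4 arrays compared (adjusted p = 0.0692). Its relatives rose in both lines, RND1 by 1.01 ± 0.18 in each and RND3 by 0.83 ± 0.09 and 0.47 ± 0.09. MPP2 measured 7.11 and 7.09 in HCC1937+BRCA1 with COH29, 7.47 and 7.34 in HCC1937+BRCA1 control, 7.00 and 7.22 in HCC1937 with COH29, and 7.43 and 7.63 in HCC1937 control cells. The COH29 arrays were the lower ones in both lines, by 0.30 ± 0.11 in HCC1937+BRCA1 (adjusted p = 0.059) and 0.42 ± 0.11 in HCC1937 (adjusted p = 0.0238). The call in HCC1937 was lost without HCC1937 COH29 replicate 1 or HCC1937 control replicate 2, and with only the 4 arrays compared (adjusted p = 0.0507).

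DHX8 did not pass in either line, at 0.08 ± 0.09 in each. Of 4 other DEAH-box or related splicing helicases, 3 fell in HCC1937+BRCA1 and 2 in HCC1937, where 20.1% and 12.5% of all genes fell. DHX15 fell by 0.61 ± 0.09 and 0.50 ± 0.09. UBTF changed by -0.06 ± 0.09 and -0.01 ± 0.09 and did not pass. Of 10 genes of the RNA polymerase I machinery, 5 fell in HCC1937+BRCA1, led by TAF1B at -1.04 ± 0.11 and POLR1D at -0.96 ± 0.12. In HCC1937, 2 of the 10 fell and 1 rose, where 12.5% and 10.2% of all genes did. G6PC3 changed by -0.18 ± 0.13 and -0.01 ± 0.13, neither past the threshold, and of 5 measured genes listed with the glucose-6-phosphate system 2 rose in HCC1937+BRCA1 and 1 in HCC1937, with HK2, which makes glucose-6-phosphate, up by 1.54 ± 0.09 and 1.12 ± 0.09. The members that did not pass ranged from -0.30 for MPP2 to 0.33 for GRN in HCC1937+BRCA1, and from -0.33 for AOC2 to 0.26 for GRN in HCC1937.

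**Figure D5:**
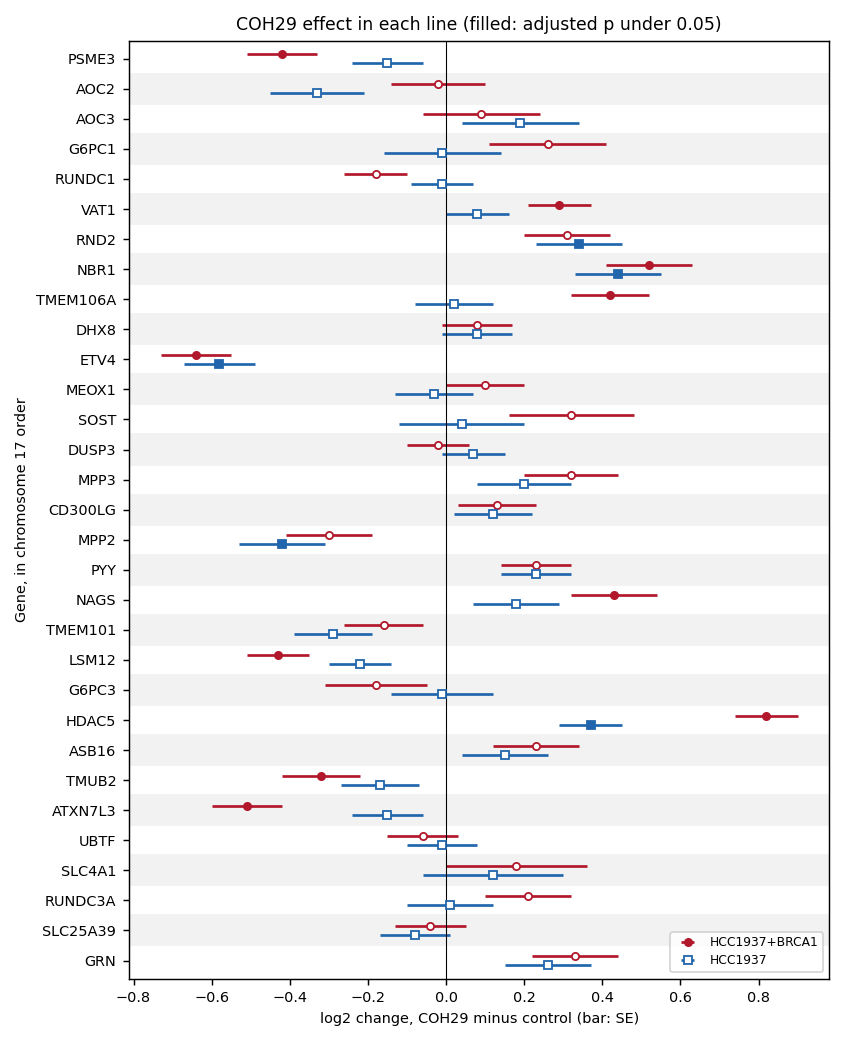
Change with COH29 (COH29 minus control, log2, with standard errors) of each of the 31 members in HCC1937+BRCA1 (circles) and HCC1937 (squares), in chromosome order. Filled symbols passed an adjusted p of 0.05. HDAC5 in HCC1937+BRCA1 is highest at 0.82, ETV4 is lowest in both lines at -0.64 and -0.58, and most other symbols are open.

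Other genes of the stretch also moved with the drug. FAM215A, a non-coding RNA gene, rose by 0.50 ± 0.10 in HCC1937+BRCA1 (adjusted p = 0.00486) and 0.34 ± 0.10 in HCC1937 (adjusted p = 0.0418). The call in HCC1937 was lost without either HCC1937 control array, either HCC1937+BRCA1 control array or HCC1937 COH29 replicate 1. It was lost, too, with the replicate number as a block (adjusted p = 0.0603) and with only the 4 arrays compared (adjusted p = 0.0557). LINC00910 fell by 0.54 ± 0.09 in HCC1937+BRCA1 (adjusted p = 0.00157) and was -0.04 ± 0.09 in HCC1937, and the first call was lost when its probe sets were averaged (adjusted p = 0.0882). HROB, a factor that loads the MCM helicase in homologous recombination repair, fell by 0.32 ± 0.08 in HCC1937+BRCA1 (adjusted p = 0.015), a call that depended on 3 of that line's arrays, COH29 replicate 1 and both controls.

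Whether the drug's effect differed between the lines was tested directly, as the effect in HCC1937+BRCA1 minus the effect in HCC1937. None of the 31 members passed (limma, adjusted p under 0.05), with 3 at an unadjusted p under 0.05. Over all genes 0.956% passed (0.543% with a higher and 0.413% with a lower effect in HCC1937+BRCA1) and 13.2% had an unadjusted p under 0.05. HDAC5 ranked first among members, and its effects differed by 0.45 ± 0.12 (limma adjusted p = 0.128). TMEM106A followed at 0.40 ± 0.14 (adjusted p = 0.258) and ATXN7L3 at -0.35 ± 0.13 (adjusted p = 0.305). ETV4 and NBR1, which changed in both lines, had differences of -0.06 ± 0.13 and 0.08 ± 0.16. A call in HCC1937+BRCA1 without one in HCC1937 therefore does not show an effect particular to that line. This holds for ATXN7L3, LSM12, PSME3, TMUB2, TMEM106A, NAGS and VAT1. The standard error was 0.11 to 0.26 for each member. Even the 0.45 of HDAC5 was not called, so differences of that size or smaller can go undetected with these arrays.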

How the data were processed

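Total RNA, isolated with TRIzol from cells grown in RPMI with fetal bovine serum per the labels, was put on Affymetrix arrays, with 8 in all and 2 per group. The deposited table holds a log2 intensity for each of 33297 probe sets, and RMA and Partek are named, without a version, in the submitters' processing notes. Genome build and annotation of the array were not given in the sources used here. RefSeq GRCh38.p14 served only for names, gene order and promoter windows. With 2 arrays per group, their number sets the precision.

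Platform annotation named 1 gene on 19460 probe sets, several on 1754 and none on 12083, and 19429 matched a RefSeq gene ID, with 0 symbols changed. Of the 18417 genes kept, 769 were chosen among several probe sets by the highest mean. All 8 arrays and all genes entered one group-means model in limma 3.58.1 in R 4.3.3 (lmFit, contrasts.fit, eBayes), with 4 residual degrees of freedom. A gene was called where its Benjamini-Hochberg adjusted p was under 0.05, and the fit was tested on simulated data. Other steps ran in Python 3.11.15 with pandas 2.3.3 and matplotlib 3.10.9.

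The members, the lists of partner genes and markers, the motifs and the blocks were chosen with earlier results of these data known. All members are named. Array values are given for the 8 largest called changes in the control line difference and in each COH29 comparison. Of the other genes of the stretch, those with the 4 largest called changes in a comparison are named. Alternatives were a filter at the 30th percentile of mean level (6.589), 2 other scalings, trended and robust eBayes, the replicate number as a block, averaging of a gene's probe sets, only the 4 arrays compared, and each array left out.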

Additional observations from a re-analysis of the deposited data

How the results depend on the processing

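The line difference was the steadier result. Without drug, 11 to 17 members were lower and 1 to 1 higher when 1 array was left out, and with COH29 12 to 14 were lower and 1 to 2 higher. The COH29 counts moved more. In HCC1937+BRCA1, 1 to 6 members rose and 3 to 6 fell when 1 array was left out, with 1 rising without control replicate 1 of that line, 3 rising without its COH29 replicate 2 and 3 falling without its COH29 replicate 1. In HCC1937, 0 to 3 rose and 1 to 3 fell, with 0 rising when either COH29 replicate 1 or control replicate 1 was missing and 1 falling without COH29 replicate 1 or control replicate 2. The difference of effects had 0 members called, higher or lower, with any 1 array left out. In HCC1937+BRCA1, 8 members rose with genes above the 30th percentile alone, where fewer genes were tested, and 9 with arrays shifted to one median, a shift that took the median of all genes in that comparison to 0.11, against 0.04 as deposited. In HCC1937, 4 fell with genes above the 30th percentile. With COH29, 1 member was higher between the lines when only the 4 arrays compared were fitted, and this setting was not run for the difference of effects, which needs all 8. The 8 largest called changes of members in each comparison, or all where fewer passed, gave 29 results and 433 alternative values. Of these values, 409 kept their call, 24 lost it and 0 reversed. Called members with smaller changes, several of which lost their call as given above, are not in this count.

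The labels give replicate numbers but do not say whether these pair the samples. Deviations of same-numbered arrays from their group means correlated at -0.204 to 0.26 over all genes, which does not settle it. With the replicate number as a block, 1 member was higher between the lines with COH29, and the counts otherwise stayed within 1.5 times those reported. With the numbers crossed between the lines, a replicate block chosen after seeing the data, 8 members rose in HCC1937+BRCA1.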

Other observations

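Of the members, 3 had a second probe set that names the same gene. For TMEM106A the probe sets were alike, with line differences without drug of 0.54 and 0.62 and changes with COH29 in HCC1937+BRCA1 of 0.42 and 0.44, the kept one first. For LSM12 they gave -0.27 and -0.27 between the lines and -0.43 and -0.44 with COH29 in HCC1937+BRCA1. For AOC3, a copper amine oxidase known as a vascular adhesion protein, they disagreed. Its kept probe set averaged 7.61 ± 0.03 in HCC1937+BRCA1 control and 7.70 ± 0.08 in HCC1937 control cells (SD, n = 2 each), a difference of -0.09. Its other probe set averaged 5.74 ± 0.29 in HCC1937+BRCA1 control and 6.57 ± 0.08 in HCC1937 control cells, a difference of -0.83. With COH29 the 2 probe sets gave line differences of -0.20 and -0.53. With the mean of both, AOC3 passed the adjusted threshold between the control lines, so the count of lower members depends on that choice by 1 gene.

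The CpG content of the promoter windows was counted for the 18 members that had one, taking each gene's window with the most CpG. The 11 members lower between the control lines had 2 to 46 CpG per window with a median of 23, the 7 other members 3 to 40 with a median of 17, and all 35116 windows, with no choice among a gene's windows, between 0 and 77 with a median of 14. The groups overlapped widely, and no test was made.

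Blocks of chromosome 17 farther from BRCA1 also held genes that were lower in HCC1937+BRCA1. The block of 42 genes that lies 4 blocks before PSME3, from SNORD7 to RPL23, had 17 genes lower and 0 higher between the control lines with a median of -0.19, and the block 2 before PSME3, from KRT25 to JUP, had 8 lower and 1 higher with a median of -0.10. With COH29 the same blocks had medians of -0.31 and -0.04, against -0.23 for the block from PSME3 to GRN.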
